A study of Mus musculus with 36 samples.

Results

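The effect of regulatory T cells (Treg) on HP1α-deficient conventional CD4+ T cells (Tconv) was measured by comparing 3 RNA-seq libraries of HP1a KO Tconv recovered from hosts that had received Treg with 3 libraries of HP1a KO Tconv recovered from hosts that had not. The 6 libraries, of 36 in the study, are all those whose titles name HP1a KO Tconv with or without Treg. Mice with a loxP-flanked gene for HP1α (Hp1a, now Cbx5) were crossed with CMV-cre mice, which deletes the gene in every tissue and in the germ line, and homozygous KO and WT littermates were bred from heterozygotes on a mixed 129/Sv and C57BL/6 background. Littermates of matched sex and young adult age were used, and the paper states that its sequencing work was done with male mice. All grafted groups shared the remaining treatment: lethally irradiated hosts (C57BL/6 J, or B6 carrying CD45.1) were given equal numbers of marrow cells from C57BL/6 J and B6D2F1 mice, depleted of T and NK cells, together with naive CD4+ T cells of one genotype. In the groups with Treg, WT Treg from Foxp3-Thy1.1 mice, expanded ex vivo, were added. CD4+ cells were taken from the spleen 3 weeks after the graft and sorted as donor Tconv that lacked the Thy1.1 mark of the Treg and carried T cell receptor Vβ6, which recognises a viral superantigen expressed by the B6D2F1 cells. For comparison, HP1a WT Tconv and WT Tconv of a second line (HP1g, bred for the deletion of the HP1γ gene in T cells) were used, each with and without Treg and each with 3 libraries per group, and 3 libraries of naive HP1a KO CD4+ T cells were set beside them. The labels do not say whether the libraries of a group came from separate mice, so that the p-values measure the spread between these libraries.

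Treg limit the response of Tconv by consuming interleukin-2, by inhibitory cytokines and by acting on antigen-presenting cells. T cells under lasting antigen stimulation express inhibitory receptors such as PD-1 and LAG-3 together with transcription factors such as TOX and NR4A proteins. HP1α, encoded by Cbx5, binds histone H3 methylated at lysine 9 and is known for the silencing of heterochromatin.

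In HP1a KO Tconv, 71 of 16133 genes tested (0.44%) were called, which means a Benjamini-Hochberg adjusted p under 0.05 in edgeR's quasi-likelihood test and an absolute log2 fold change above 1. Calls are those of edgeR wherever DESeq2, the other tool run, is not named. With Treg, 29 genes were higher (0.18%) and 42 were lower (0.26%). All 71 had groups without overlap. Over all genes tested, 9.72% were higher and 13% lower in every library with Treg. Separate groups, given for single called genes below, thus hold for every call and are no further support. Among the genes that rose were those encoding inhibitory receptors (Lag3, Pdcd1), factors of exhaustion and of T cell receptor signalling (Tox, Nr4a2, Rgs16), interleukin-22 (Il22 and its copy Il22b) and the signalling inhibitor Spry1. Among those that fell were genes induced by cytokine receptors (Cish, Socs2, Osm), an integrin chain (Itga1), a glucose transporter (Slc2a3) and a chromatin organiser (Satb1). The median log2 fold change over all genes was 0.02. Of the 16133 genes tested, 2551 had an unadjusted p under 0.05, 1256 higher and 1295 lower with Treg. Counts given below for gene lists are to be read beside these counts and the shares called over all genes. In bulk RNA, fewer cells of a type and less RNA per cell cannot be told apart.

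**Figure D1:**
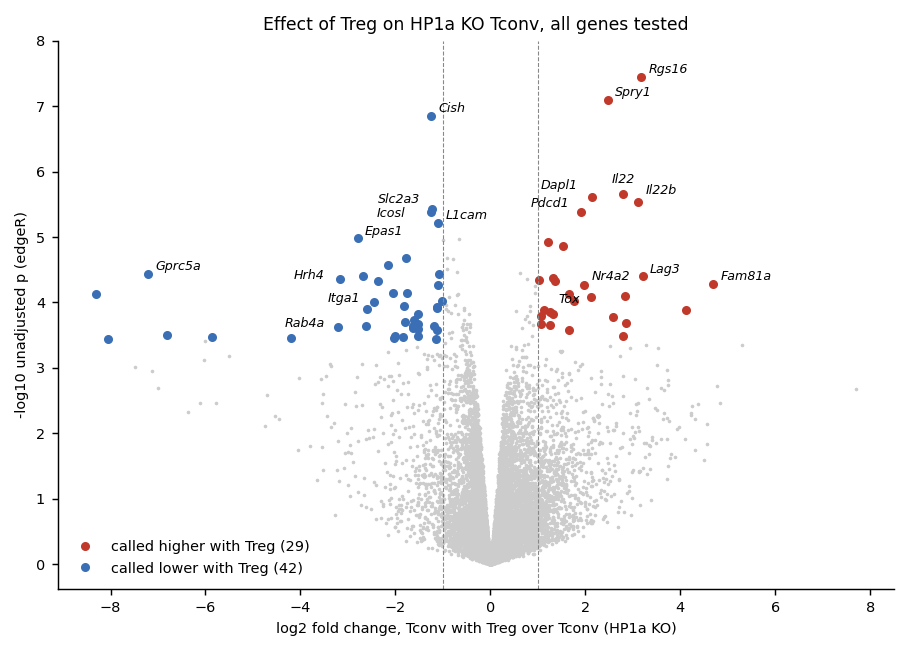
Log2 fold change of HP1a KO Tconv with Treg over HP1a KO Tconv (x axis) against −log10 of the unadjusted edgeR p (y axis) for each of the 16133 genes tested, with dashed lines at the fold threshold. The 29 genes called higher (red) and 42 called lower (blue) are a small share of all genes, led by Rgs16, Spry1 and Cish.

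The count rested on few libraries. Leaving out replicate 1, 2 or 3 of HP1a KO Tconv left 58, 12 and 12 called genes, and leaving out replicate 1, 2 or 3 of HP1a KO Tconv with Treg left 24, 40 and 4. The genes Cish, Rgs16 and Spry1 were called in all 6 of these fits, Dapl1, Il22, Il22b, Pdcd1 and Slc2a3 in 5, and 26 of the 71 genes in none. DESeq2 called 443 genes (2.5%), 230 higher (1.3%) and 213 lower (1.2%), all 71 among them.

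Total estimated counts of the 6 libraries ranged from 38362215 to 62700073, at which 3 counts are 0.0476 to 0.0751 CPM (counts divided by library size after TMM scaling over 35 libraries). Replicates without Treg correlated at 0.981 to 0.982 over log2 CPM and those with Treg at 0.967 to 0.984, the lower values being those of replicate 2 with Treg. The sort for Vβ6 was visible in the libraries. Trbv19, its gene segment, stood at 319 to 427 CPM in the grafted HP1a KO libraries and at 35.7 to 41.7 CPM in naive HP1a KO cells. Cd8a stood at 0.576 to 1.63 CPM in the grafted libraries and at 0.0744 to 0.182 CPM in naive cells. Cd8b1 stood at 3.68 to 7.52 CPM in the grafted libraries and at 21.4 to 30.1 CPM in naive cells. Cbx5 reads remained in HP1a KO, at 15.9, 16.1 and 13.8 CPM without Treg and 15.4, 19 and 19.7 CPM with Treg, against 28.5, 30.3 and 26.4 CPM in HP1a WT Tconv, so that the gene's total is below WT but is no measure of the deleted part. The exons of Cbx5 also overlap Hnrnpa1 on the other strand, which unstranded libraries cannot separate.

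Markers of other cell types were low beside those of T cells, and some were higher in every library with Treg. The summed level of 12 neutrophil markers was 68.1, 1.93 and 71.6 CPM without Treg and 428, 277 and 493 CPM with Treg, and each of the 10 markers tested was higher in every library with Treg than in every library without (beside 9.72% of all genes). None of the 10 was called by edgeR, in which 8 had an unadjusted p under 0.05, while DESeq2 called 4, all higher. The summed level of 10 B cell markers was 148 to 237 CPM without and 258 to 326 CPM with Treg, and that of 14 T cell identity genes 9734 to 9936 and 10241 to 11191 CPM. The ranges of the macrophage, dendritic, erythroid, CD8 T or NK and platelet lists overlapped between the groups. No marker of the neutrophil list was at 0 in every library of either group, whereas Klra4 of the CD8 T or NK list was at 0 with Treg and Gp1bb of the platelet list in both groups. The part of these cells in the results below was not tested.

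Inhibitory receptors restrain T cells that have met antigen. Of 20 such receptors and their ligands tested, Lag3 and Pdcd1 were called, both higher, and the median log2 fold change of the list was 0.03, beside 0.02 over all genes. Lag3 (GRCm39 chr6:124881320-124888765, minus strand), which encodes a receptor for MHC class II, stood at 0.643, 0.626 and 0.698 CPM without Treg and at 6.3, 3.5 and 8.14 CPM with Treg. All 3 libraries with Treg were above those without, at levels that stayed low (log2 fold change 3.20, SE 0.37, adjusted p = 0.0233). Pdcd1 (chr1:93966027-93980312, minus strand), encoding PD-1, stood at 28.9, 35.2 and 31.6 CPM without and 109, 148 and 98.8 CPM with Treg (log2 fold change 1.91, SE 0.16, adjusted p = 0.00755). These groups were separated as well. The call of Lag3 was lost in 5 of the 6 fits without one library, that of Pdcd1 in 1.

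The other receptors and ligands did not pass the test. Of the 20 tested, 10 had a log2 fold change above 0 and 10 below, down to -1.36. The unadjusted p was under 0.05 in 10, of which 5 were higher and 5 lower, and DESeq2 called 3, all higher. Those given below had log2 fold changes above 0. Havcr2, encoding TIM-3, stood at 4.84, 11.7 and 11 CPM without and 10.7, 6.66 and 12.6 CPM with Treg, with overlapping groups (log2 fold change 0.15, SE 0.37, adjusted p = 0.891). Its sign changed when single libraries were left out, over a range from -0.16 to 0.36. Cd200, a ligand of an inhibitory receptor, was higher in each library with Treg (13.1, 11.1 and 18.3 against 27.2, 60.5 and 40.4 CPM), with a log2 fold change of 1.61 at an adjusted p of 0.0894. Neither Ctla4, at 0.80 on the log2 scale (adjusted p = 0.265), nor Tigit, at 0.67 (adjusted p = 0.35), was called.

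Of 22 factors of exhaustion and T cell receptor signalling tested, 3 were called, all higher, and the median log2 fold change was 0.45. DESeq2 called 7, all higher, beside 1.3% of all genes. The unadjusted edgeR p was under 0.05 in 13, of which 10 were higher. In every library with Treg 10 were higher, beside 9.72% of all genes, and 3 lower, beside 13%. Tox (chr4:6686353-6991644, minus strand), a DNA-binding protein of exhausted T cells, stood at 20.9, 38.7 and 33.8 CPM without and 107, 161 and 131 CPM with Treg (log2 fold change 2.11, SE 0.25, adjusted p = 0.0292). Nr4a2 (chr2:56996842-57014331, minus strand), a nuclear receptor induced by T cell receptor signals, stood at 22, 15.2 and 17.3 and 57.9, 60.4 and 93.2 CPM (log2 fold change 1.97, SE 0.23, adjusted p = 0.025). Rgs16 (chr1:153616091-153621228, plus strand), which shortens signals of G protein-coupled receptors, stood at 7.24, 7.05 and 7.74 and 54, 72.4 and 71.1 CPM (log2 fold change 3.18, SE 0.14, adjusted p = 0.000569). The lowest library with Treg exceeded the highest library without it in each of these 3 genes, and Rgs16 had the lowest adjusted p of all genes tested. The call of Nr4a2 was lost in 4 of the 6 fits without one library, while Rgs16 was called in all 6. Egr1, an early response factor, had a log2 fold change of -0.94 and an adjusted p of 0.0346, and so missed the fold threshold. Ikzf2, encoding Helios, stood at 13.2, 9.7 and 19.5 CPM without and 40.6, 113 and 58.5 CPM with Treg and was not called by edgeR (adjusted p = 0.0895). DESeq2 called Ikzf2 higher (adjusted p = 0.000674).

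**Figure D2:**
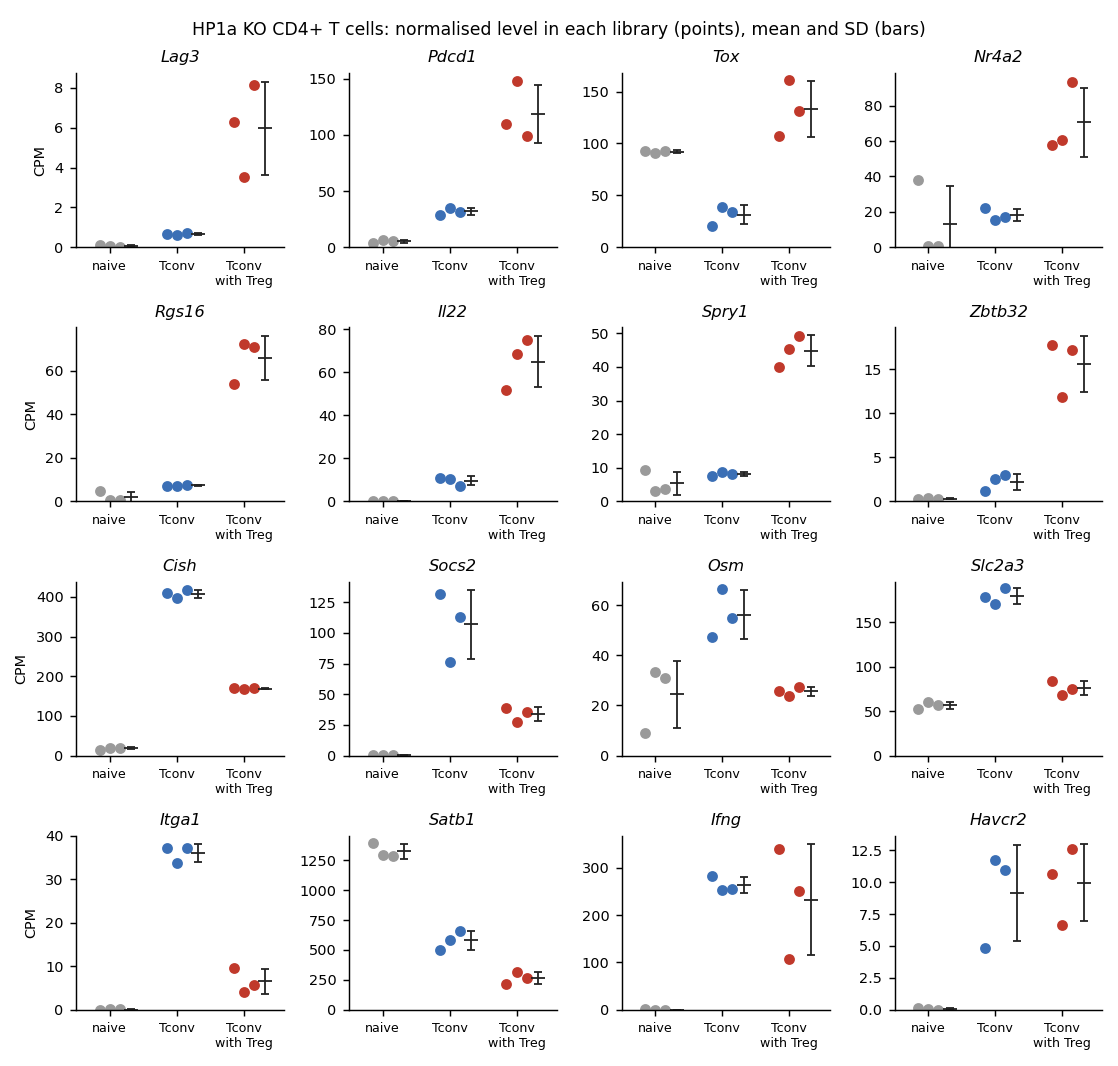
CPM (y axes) in each library of naive HP1a KO CD4+ T cells, HP1a KO Tconv and HP1a KO Tconv with Treg (x axes), with mean and SD over 3 libraries, for 16 genes. The groups with and without Treg are separate for every gene shown except Ifng and Havcr2, and the naive library with the high Nr4a2 value is replicate 1.

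Genes of T helper subsets gave 1 call by edgeR, Il22. This cytokine gene (chr10:118040847-118045952, plus strand), which acts on epithelial cells and is made by Th17 and Th22 cells, stood at 11.1, 10.3 and 7.22 CPM without and 51.7, 68.4 and 75 CPM with Treg (log2 fold change 2.79, SE 0.21, adjusted p = 0.00755). Its copy Il22b (chr10:118125534-118130943, minus strand) followed, at 1.72, 2.46 and 1.74 and 14.4, 21.5 and 14.8 CPM (log2 fold change 3.12, SE 0.25, adjusted p = 0.00755), and both were separate between the groups. Their longest coding transcripts are identical at 1081 of 1110 aligned bases (97.4%), so that reads may have been divided between them and the 2 genes are not independent. The other cytokines of the Th17 list were not called by edgeR. Il21 had a log2 fold change of 3.73 (adjusted p = 0.0778) with 3.62, 1.88 and 4.84 CPM without and 15.7, 71.8 and 49.4 CPM with Treg. DESeq2 called Il21 higher (adjusted p = 9.83e-06). Il17a, at 28.4, 1.67 and 1.21 and 4.85, 13.7 and 13.6 CPM, varied so much between libraries that its log2 fold change of 0.05 had an SE of 1.25. Of the 14 Th17 genes tested, 11 had a log2 fold change above 0, with a median of 0.57. The unadjusted edgeR p was under 0.05 in 5, of which 4 were higher, and DESeq2 called 2 higher and 1 lower.

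No call was made among 20 Th1 genes tested. In 5 of them, all lower with Treg, the unadjusted p was under 0.05, and DESeq2 called 1, lower. Ifng stood at 282, 254 and 254 CPM without Treg and at 339, 106 and 252 CPM with Treg. With Treg, replicate 1 lay above the libraries without Treg, replicate 3 just below them and replicate 2 far below (log2 fold change -0.16, SE 0.40, adjusted p = 0.89). Tbx21, encoding the Th1 factor T-bet, was lowest in that library as well, at 160.0, 197 and 179 against 184, 51.6 and 144 CPM (log2 fold change -0.47, SE 0.44, adjusted p = 0.679). Without replicate 2 with Treg the log2 fold change of Ifng was 0.18. Il12rb2, a chain of the interleukin-12 receptor, was at 18.6, 16.3 and 17.9 and 5.86, 1.95 and 6.18 CPM without overlap, yet with an adjusted p of 0.101. The median of the Th1 list was -0.31.

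The 9 Th2 genes tested all had log2 fold changes below 0, with a median of -1.08. None was called by edgeR, in which 4 had an unadjusted p under 0.05 (beside 2551 of all 16133 genes). DESeq2 called 4, all lower, beside 1.2% of all genes. Gata3, the lead factor of the subset, stood at 340.1, 672 and 507 and 209, 248 and 223 CPM (adjusted p = 0.0912), and Il1rl1, the interleukin-33 receptor, at 38.9, 49.8 and 80.5 and 5.69, 16.9 and 9.78 CPM (adjusted p = 0.0882). They were among 4 of the 9 genes that were lower in every library with Treg, beside 13% of all genes. The follicular helper list leaned the other way, since 10 of its 11 genes tested were above 0, with a median of 1.53, and 9 were higher in every library with Treg, beside 9.72% of all genes. No member was called by edgeR, although 10 had an unadjusted p under 0.05 (9 of them higher). DESeq2 called 6, all higher, beside 1.3% of all genes. Cxcr5, the receptor that leads T cells to B cell follicles, stood at 17.9, 23.5 and 23.4 and 28.8, 109 and 48.2 CPM, and Angptl2, a secreted factor on the list, at 7.29, 7.79 and 11.3 and 19.4, 57.6 and 53.9 CPM. Replicate 2 with Treg had the highest level of Cxcr5, Il21, Angptl2, Ikzf2 and Foxp3 among the 6 libraries.

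Of 15 Treg markers none was called by edgeR, in which 8 had an unadjusted p under 0.05 (4 in each direction), and DESeq2 called 2 higher and 1 lower. Foxp3, the factor that defines Treg, stood at 13.1, 7.42 and 13.2 CPM without and 8.39, 35 and 16.3 CPM with Treg (log2 fold change 0.83, SE 0.52, adjusted p = 0.519), and overlapped because replicate 1 with Treg was within the range without Treg. Il10, the inhibitory cytokine interleukin-10, was at 0.31, 0.858 and 1.54 and 3.16, 5.21 and 12.3 CPM, higher in each library with Treg but with an adjusted p of 0.127. Tnfrsf18, encoding the co-stimulatory receptor GITR, passed the p threshold at 0.0346 with a log2 fold change of only -0.56. The anergy list of 13 genes had a median of 0.41 and no call by edgeR, with 9 at an unadjusted p under 0.05 (7 higher), and 1 higher and 1 lower by DESeq2.

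Cish, Socs2 and Osm, each known to be induced by cytokine receptors through STAT5, fell with Treg. Cish (chr9:107173225-107179983, plus strand), encoding an inhibitor of cytokine and T cell receptor signals, stood at 409.7, 396 and 417 CPM without and 169, 168 and 169 CPM with Treg. The spread within each group was small beside the gap between them (log2 fold change -1.25, SE 0.06, adjusted p = 0.000749), and this was the lowest adjusted p among genes that fell. Socs2 (chr10:95219523-95253929, minus strand), a relative of Cish, fell from 132, 76.4 and 113 to 38.9, 27.4 and 35.6 CPM (log2 fold change -1.64, SE 0.23, adjusted p = 0.0414). Osm (chr11:4186420-4191026, plus strand), encoding oncostatin M, a cytokine of the interleukin-6 family, fell from 47.2, 66.5 and 54.9 to 25.8, 23.8 and 27.2 CPM (log2 fold change -1.11, SE 0.13, adjusted p = 0.025). The 3 genes were separate between the groups. The call of Osm was lost in 5 of the 6 fits without one library, while Cish was called in all 6. Socs1 and Socs3, further members of the SOCS family, were not called: Socs1 stood at 102, 87.2 and 95.2 and 94.9, 93.8 and 89.2 CPM, and Socs3 at 242, 164 and 243 and 364, 349 and 371 CPM (adjusted p = 0.952 and 0.0894). These 5 genes were brought together after values had been seen.

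Promoter sequences were available from RefSeq (GRCm38.p6, 250 bases before to 50 after the annotated start) for 51 of the 71 genes, and 4 of them are printed, Cish and Cxcl10 as genes known to be induced by STAT factors and interferon, and Il22 with Il22b as copies. The bases in capitals match 1 of 7 motifs searched on both strands (AP-1, NFAT, RUNX, T-box, STAT, interferon response and TATA, whose letters are given with their shares).
Cish (GRCm38.p6 chr9:107296409-107296708, plus strand): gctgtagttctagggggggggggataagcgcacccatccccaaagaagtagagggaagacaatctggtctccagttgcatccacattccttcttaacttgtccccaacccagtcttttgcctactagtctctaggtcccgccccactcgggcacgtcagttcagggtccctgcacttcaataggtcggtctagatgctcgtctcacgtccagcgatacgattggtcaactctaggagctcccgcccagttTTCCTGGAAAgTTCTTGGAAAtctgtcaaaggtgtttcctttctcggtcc
Cxcl10 (GRCm38.p6 chr5:92348840-92349139, minus strand): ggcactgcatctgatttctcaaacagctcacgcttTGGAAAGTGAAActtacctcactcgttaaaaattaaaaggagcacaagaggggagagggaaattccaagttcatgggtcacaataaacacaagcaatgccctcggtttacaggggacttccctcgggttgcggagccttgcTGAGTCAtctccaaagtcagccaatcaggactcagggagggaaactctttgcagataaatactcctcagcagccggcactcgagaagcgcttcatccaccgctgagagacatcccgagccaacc
Il22 (GRCm38.p6 chr10:118204714-118205013, plus strand): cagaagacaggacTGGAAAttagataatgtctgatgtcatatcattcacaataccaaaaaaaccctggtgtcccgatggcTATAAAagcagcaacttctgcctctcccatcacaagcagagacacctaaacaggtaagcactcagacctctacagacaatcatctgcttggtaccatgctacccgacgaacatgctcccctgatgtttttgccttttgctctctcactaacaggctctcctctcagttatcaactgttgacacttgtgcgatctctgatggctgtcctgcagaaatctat
Il22b (GRCm38.p6 chr10:118294989-118295288, minus strand): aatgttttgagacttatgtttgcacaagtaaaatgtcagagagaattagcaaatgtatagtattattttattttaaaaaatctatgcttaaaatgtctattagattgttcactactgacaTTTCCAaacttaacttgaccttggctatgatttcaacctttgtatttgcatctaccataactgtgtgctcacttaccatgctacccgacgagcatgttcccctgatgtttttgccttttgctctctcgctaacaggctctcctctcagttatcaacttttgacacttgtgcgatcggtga

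The Cish window holds 2 STAT matches, each overlapping an NFAT match in bases 251 to 260 and 262 to 271 of the window. That of Cxcl10, a chemokine gene induced by interferon which rose from 9.0, 8.19 and 8.95 to 15.7, 21.8 and 19.2 CPM (log2 fold change 1.13, SE 0.16, adjusted p = 0.0346), holds an AP-1 match and an NFAT match that overlaps an interferon response match. Il22 has an NFAT and a TATA match and Il22b an NFAT match elsewhere in the window, and the 2 windows are identical at 201 of 258 aligned bases. A STAT match (TTCNNNGAA) was found in 0 of 21 promoters of genes that rose, in 3 of 30 of genes that fell (Cish, Rasl11a and Rom1) and in 8.42% of 27025 promoters. Matches to the NFAT motif TGGAAA were found in 4 of 21 and 7 of 30 promoters, beside 21.5%, and matches to the AP-1 motif TGANTCA in 1 of 21 and 3 of 30, beside 7.92%. A TATA match, spelled TATAAA, was in 5 of 21 and 2 of 30 promoters, beside 14.2%, and the RUNX motif TGTGGT was in 1 and 3, beside 16.9%. The interferon response motif, which has a pair of GAAA runs 2 bases apart, was in 1 of 21 promoters of genes that rose (Cxcl10). It was also in 1 of 30 promoters of genes that fell, beside 3.49% of all. The T-box motif AGGTGTGA was in none, beside 1.28%. A match describes the letters of the window and not a bound site.

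The remaining genes that rose with Treg are of mixed function. Spry1 (chr3:37693897-37698755, plus strand), an inhibitor of receptor tyrosine kinase signals, stood at 7.55, 8.81 and 8.19 CPM without and 40.1, 45.5 and 49.1 CPM with Treg (log2 fold change 2.47, SE 0.12, adjusted p = 0.000639). Its libraries were close within each group. Zbtb32, encoding a zinc finger repressor of T cell proliferation and cytokine genes, rose from 1.19, 2.53 and 2.95 to 17.7, 11.9 and 17.2 CPM (log2 fold change 2.83, SE 0.36, adjusted p = 0.0288). Dapl1, a gene of naive and memory T cells, rose from 7.86, 6.36 and 8.01 to 26.4, 35.2 and 34.7 CPM (log2 fold change 2.13, SE 0.16, adjusted p = 0.00755), and remained below naive cells at 226 ± 31.1 CPM (SD, n = 3). Klf4, a zinc finger factor of quiescence, stood at 8.5, 8.68 and 7.22 and 19.8, 23.7 and 25.6 CPM (log2 fold change 1.52, SE 0.15, adjusted p = 0.0149), and Plekho1, an adaptor protein, at 5.03, 3.15 and 5.46 and 14.1, 16.2 and 15.7 CPM (log2 fold change 1.77, SE 0.23, adjusted p = 0.032). Smim36, a small membrane protein that shares exons with Mmd, was at 2.76, 2.97 and 3.06 and 7.16, 10.2 and 9.95 CPM (log2 fold change 1.65, SE 0.21, adjusted p = 0.0288). In all of them the groups were separate. Lrg1, a protein of neutrophil granules among other sources, had 0.286, 0.534 and 0.714 CPM without and 2.8, 2.83 and 5.0 CPM with Treg (log2 fold change 2.80, SE 0.45, adjusted p = 0.0484), beside the higher neutrophil markers given above.

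Of the genes that fell, those with the largest changes at 5 CPM or more were Rab4a, Hrh4 and Epas1. Rab4a, a GTPase of endosome recycling, stood at 20.5, 40.8 and 34.2 CPM without and 2.28, 5.68 and 2.37 CPM with Treg (log2 fold change -3.20, SE 0.44, adjusted p = 0.0414), and its exons overlap Ccsap on the other strand, which these unstranded libraries cannot separate. Hrh4, the histamine H4 receptor, stood at 26.2, 55.2 and 46.9 and 3.71, 6.48 and 4.02 CPM (log2 fold change -3.16, SE 0.34, adjusted p = 0.0233). Epas1, encoding the hypoxia-inducible factor HIF-2α, stood at 17.5, 27.7 and 34.7 and 4.21, 3.4 and 3.74 CPM (log2 fold change -2.79, SE 0.27, adjusted p = 0.0137). For each, as for all called genes that fell, every library with Treg was below every library without it. Pltp, a lipid transfer protein overlapping Ctsa, was at 37.8, 54.9 and 84.7 and 12.2, 6.78 and 9.37 CPM (log2 fold change -2.62, SE 0.36, adjusted p = 0.0414). Adam8, a membrane metalloprotease, fell from 269.9, 178 and 140.3 to 57, 59.8 and 51.5 CPM (log2 fold change -1.79, SE 0.24, adjusted p = 0.041). Rai14, Prxl2a, Ly6g5b, Abcb10, Tbc1d2 and Edaradd, the other genes named by the rule, had log2 fold changes of -2.36, -2.16, -2.05, -2.02, -1.84 and -1.81. Each of their calls was lost in at least 5 of the 6 fits without one library.

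Itga1, Slc2a3 and L1cam, with roles in adhesion and transport, fell as well. Itga1 (chr13:115089632-115238677, minus strand), the α1 chain of a collagen-binding integrin, stood at 37.3, 33.7 and 37.2 CPM without and 9.63, 4.1 and 5.73 CPM with Treg (log2 fold change -2.45, SE 0.31, adjusted p = 0.032). It was the call among 11 integrin genes tested, whose median was -0.45. This call was lost in 4 of the 6 fits without one library, and the exons of Itga1 overlap Mocs2 on the other strand. Itga2 and Itgb3 did not meet both thresholds (-1.28 at an adjusted p of 0.0922, and -0.94 at 0.0346). Of the 11 integrin genes, 6 were lower in every library with Treg, beside 13% of all genes, and none was higher in every library. The unadjusted edgeR p was under 0.05 in 6, all lower, and DESeq2 called 3, all lower. Slc2a3, the glucose transporter GLUT3, stood at 178, 171 and 189 and 83.9, 68.4 and 75.5 CPM (log2 fold change -1.22, SE 0.10, adjusted p = 0.00755) and was the call among 18 genes of glycolysis, of which 15 were below 0 with a median of -0.18. Of these 18 genes, 9 were lower in every library with Treg, beside 13% of all genes. The unadjusted edgeR p was under 0.05 in 8, all lower, and DESeq2 called 1, lower. L1cam, a cell adhesion molecule sharing exons with Arhgap4, fell from 150.3, 164 and 133 to 72, 70 and 64.6 CPM (log2 fold change -1.09, SE 0.10, adjusted p = 0.00987). All these groups were separate.

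Satb1 (chr17:52043114-52140622, minus strand), which organises chromatin loops in T cells, fell from 501, 580.4 and 660.5 CPM without to 216, 312 and 263 CPM with Treg (log2 fold change -1.12, SE 0.15, adjusted p = 0.0346). Its naive level was 1397, 1298 and 1282 CPM, and the libraries with Treg were thus farther from naive cells than those without. It was the call among 18 genes of naive and memory T cells, whose median was 0.34. In that list the unadjusted edgeR p was under 0.05 in 10, of which 8 were higher, and DESeq2 called 1 higher and 1 lower. Cd27, a co-stimulatory receptor of that list, was higher in each library with Treg but below the fold threshold (log2 fold change 0.84, SE 0.12, adjusted p = 0.0346).

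A group of 17 called genes, Lag3 among them, had a mean under 5 CPM, and several of their fold changes rest on few counts. Gnai1 had no count in any library with Treg and 0.619, 0.951 and 0.492 CPM without, at least 10.8-fold lower when the mean without Treg is set against the mean level of 3 counts per library. Gprc5a, Rab27b, Cntn1 and Nmur1 had at most 0.178 CPM in the libraries with Treg and 0.357 to 3.99 CPM in those without. On the other side, Fam81a and A530021J07Rik had at most 0.222 CPM without Treg and 1.09 to 3.13 CPM with Treg.

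Pathways that mark cell growth gave no call by either tool. The medians of 22 DNA replication and 22 mitosis genes tested were 0.07 and 0.14, and no member reached an unadjusted p of 0.05. The BCL2 family of cell death (12 genes, median -0.05), the amino acid stress response (14 genes, 0.08), cholesterol and fatty acid synthesis (22 genes, 0.06) and type I interferon-stimulated genes (18 genes, -0.01) gave no call by edgeR, with 2, 4, 3 and 1 genes at an unadjusted p under 0.05, and DESeq2 called 1 gene among them, lower, on the stress response list. Neither tool made a call among 16 HP1 proteins and H3K9 silencing factors, whose median was 0.11 and of which 3 had an unadjusted p under 0.05. Cbx1 and Cbx3, encoding HP1β and HP1γ, had log2 fold changes of 0.10 and 0.28, Trim28, a co-repressor, 0.28 and Cbx5 0.26, with adjusted p from 0.279 to 0.719. There was no call by edgeR among 13 cytotoxic and chemokine ligand genes (median 0.08), 14 co-stimulatory receptors (0.18) and 16 chemokine receptors (-0.34), with 4, 8 and 4 genes at an unadjusted p under 0.05. In these lists DESeq2 called 2 higher and 1 lower, 1 higher, and 1 lower. Gzmb, encoding the protease granzyme B, was lower in each library with Treg (139.9, 308 and 331 and 122, 77.7 and 98.2 CPM, adjusted p = 0.15), as was Ccr2, a monocyte and effector T cell receptor (741, 658 and 623 and 251, 118 and 211 CPM, adjusted p = 0.0604).

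**Figure D3:**
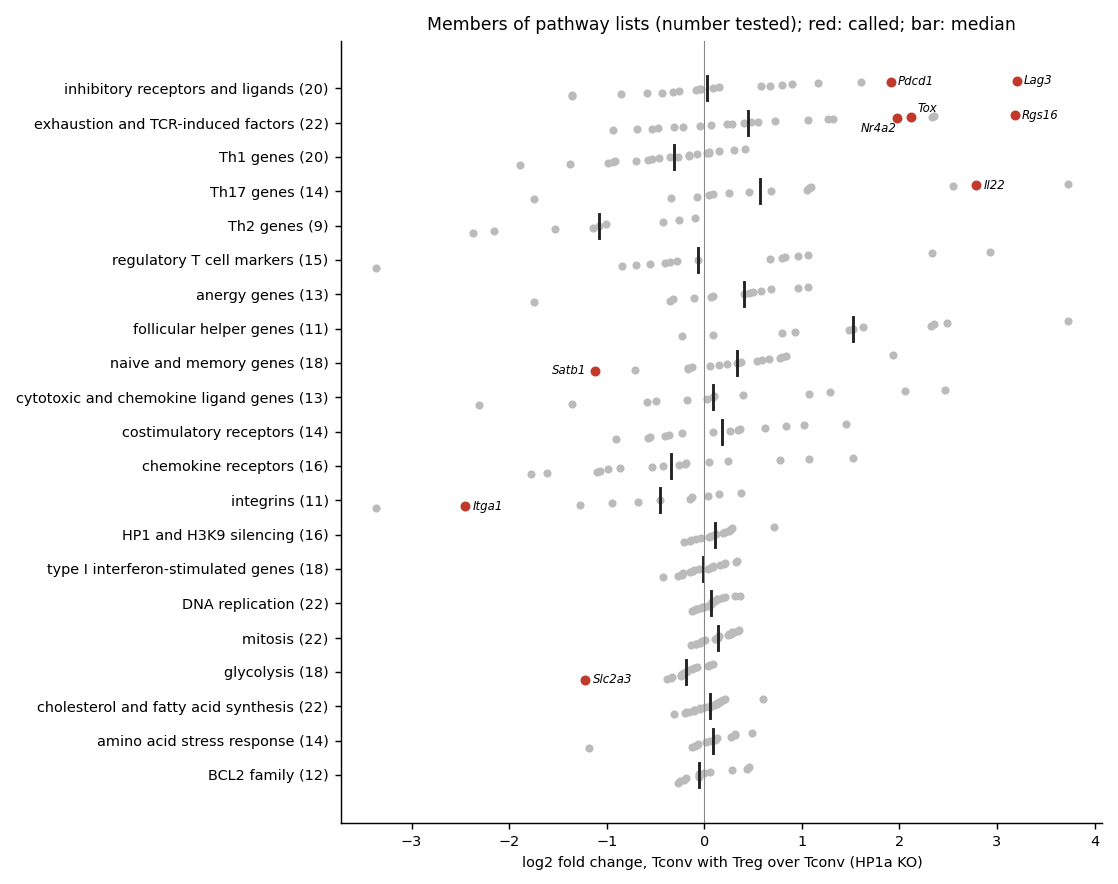
Log2 fold change of HP1a KO Tconv with Treg over HP1a KO Tconv (x axis) for each tested member of 21 gene lists (rows, number tested in brackets), with called genes in red and the median as a bar. No list holds more than 3 calls, and the follicular helper list has the highest median at 1.53 and the Th2 list the lowest at -1.08.

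In 3 gene sets printed by the study, edgeR and DESeq2 differed in their calls. The exhaustion set had 6 of 95 genes tested called by edgeR, all higher (Pdcd1, Rgs16, Nr4a2, Lag3, Cxcl10 and Tox), beside 0.18% of all genes, and 18 by DESeq2, all higher, beside 1.3%, with a median of 0.20. Its Th1 set had 1 of 71 called (Cxcl10) by edgeR and 2 higher and 4 lower by DESeq2, with a median of -0.08. A set of genes more open and more expressed in HP1a KO than in HP1a WT Tconv, both with Treg, had 2 of 53 called. These were L1cam and Spef2, both lower with Treg than without (beside 0.26%), and the median was -0.35. DESeq2 called 1 higher and 12 lower in that set. This last set was chosen by the study partly on the libraries analysed here, as higher in KO than in WT with Treg. That choice by itself tends to place the KO effect above the WT effect. The medians of the 3 sets in HP1a WT were 0.83, -0.28 and -2.36.

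The same comparison in HP1a WT Tconv of littermates called 932 of 15627 genes (5.96%), of which 553 were higher (3.54%) and 379 lower (2.43%) with Treg. Leaving out replicate 1, 2 or 3 left 315, 378 and 306 calls for HP1a WT Tconv and 608, 930 and 1450 for HP1a WT Tconv with Treg. Of the 71 genes called in HP1a KO, 53 were called in WT in the same direction, which is 74.6% of the KO calls and 5.69% of the WT calls, and none in the opposite direction. Of 68 genes tested in both, 67 had the same sign and 57 had the larger effect in WT, despite having been chosen by their size in KO. The median log2 fold change of genes that rose was 1.91 in KO and 2.50 in WT, and that of genes that fell was -1.79 and -2.78. Among the 18 genes not called in WT were Il22 and Il22b, with log2 fold changes of 1.81 and 1.5 in WT. Their difference between the genotypes was not called (adjusted p = 0.782 and 0.606).

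**Figure D4:**
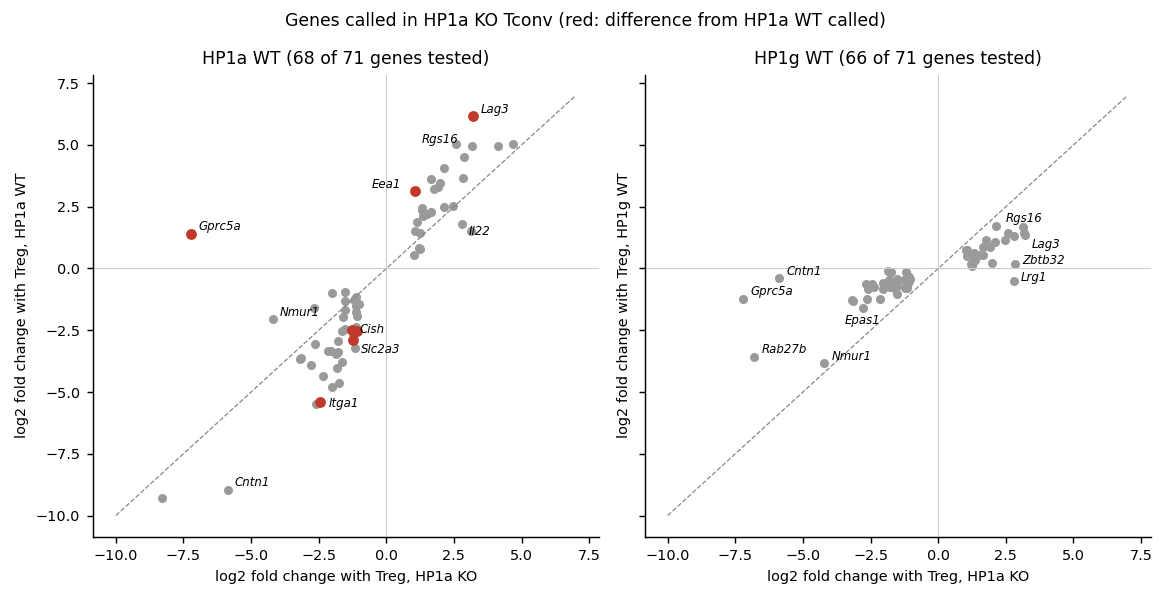
Log2 fold change with Treg of the genes called in HP1a KO (x axes) against that in HP1a WT (left, 68 genes) and HP1g WT (right, 66 genes), with the line of equal effects dashed and genes whose difference from HP1a WT was called in red. Most points lie farther from 0 than the dashed line on the left (57 of 68) and nearer to 0 on the right (66 of 66).

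The difference of the Treg effects between HP1a KO and HP1a WT, tested as an interaction over 12 libraries, was called for 24 of 17205 genes (0.139%), 14 with the KO effect above that in WT (0.0814%) and 10 with it below (0.0581%). In 23 of them both effects had the same sign and the effect in WT was larger, and in 1, Gprc5a, the signs were opposite. Of these 24 genes, 7 were called in KO and 23 in WT, and DESeq2 called all 24 (356 genes in all, 1.84%). The count rose to 80 and 91 without replicate 2 or 3 of HP1a WT Tconv with Treg and to 50 without replicate 2 of HP1a KO Tconv with Treg, and lay between 9 and 30 without any other library. It was 13, 15 and 9 without replicate 1, 2 or 3 of HP1a WT Tconv, 11 and 10 without replicate 2 or 3 of HP1a KO Tconv, and 14 and 15 without replicate 1 or 3 of HP1a KO Tconv with Treg. Markers of other cells were at different levels in the 2 genotypes. The mean summed level of neutrophil markers without and with Treg was 47.2 and 399.6 CPM in KO and 0.255 and 15.1 CPM in WT, that of macrophage markers 123 and 256 CPM in KO and 8.34 and 41.1 CPM in WT, and that of erythroid markers 300.1 and 472 CPM in KO and 2.87 and 18.9 CPM in WT. Replicate 3 of HP1a WT Tconv with Treg had the lowest median correlation with its group among the 12 libraries (0.934) and the highest share of counts in its 10 most abundant genes (9.34%). Their part in the differences was not tested.

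The called differences included genes higher with Treg. Lag3, at 0.656 ± 0.0375 CPM without and 5.98 ± 2.33 CPM with Treg in KO, went from 0.802 ± 0.257 to 56.1 ± 10.6 CPM in WT, a difference of -2.95 on the log2 scale (SE 0.46, adjusted p = 0.0371). Lag3 thus rose in both genotypes, and by less in KO. Eea1, an endosome tether, went from 28.1 ± 2.0 to 58.4 ± 13.3 CPM in KO and from 24.9 ± 1.63 to 211 ± 21.6 CPM in WT (difference -2.05, SE 0.21, adjusted p = 0.0051). Spp1, encoding osteopontin, was 4.54 ± 3.12 CPM with Treg in KO and 286 ± 56 CPM in WT (difference -4.89, SE 0.64, adjusted p = 0.0119).

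Among genes with effects below 0, Cish went from 408 ± 10.6 to 169 ± 0.616 CPM in KO and from 412 ± 57.4 to 71.8 ± 5.96 CPM in WT, a difference of 1.23 (SE 0.16, adjusted p = 0.0119). Slc2a3 went from 179 ± 9.2 to 75.9 ± 7.75 CPM in KO and from 230.1 ± 17.8 to 30.1 ± 3.87 CPM in WT (difference 1.68, adjusted p = 0.0051). Anxa1, the anti-inflammatory protein annexin A1, was 42.9 ± 8.99 CPM with Treg in KO and 5.95 ± 1.9 CPM in WT, from 109 ± 29.9 and 197 ± 39.4 CPM without Treg (difference 3.68, SE 0.37, adjusted p = 0.0051). In these 3 genes the effect was larger in size in WT. The differences of Itga1 (2.95) and L1cam (1.46) had the same direction. Pdcd1, Tox, Nr4a2 and Rgs16 had larger effects in WT (log2 fold changes 3.29, 4.08, 3.46 and 4.94), but the differences were not called (adjusted p = 0.165, 0.122, 0.528 and 0.0856). That of Havcr2, -2.71, had an adjusted p of 0.0562. Spry1 had effects of 2.47 and 2.52, and the difference of -0.04 had an SE of 0.38.

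**Figure D5:**
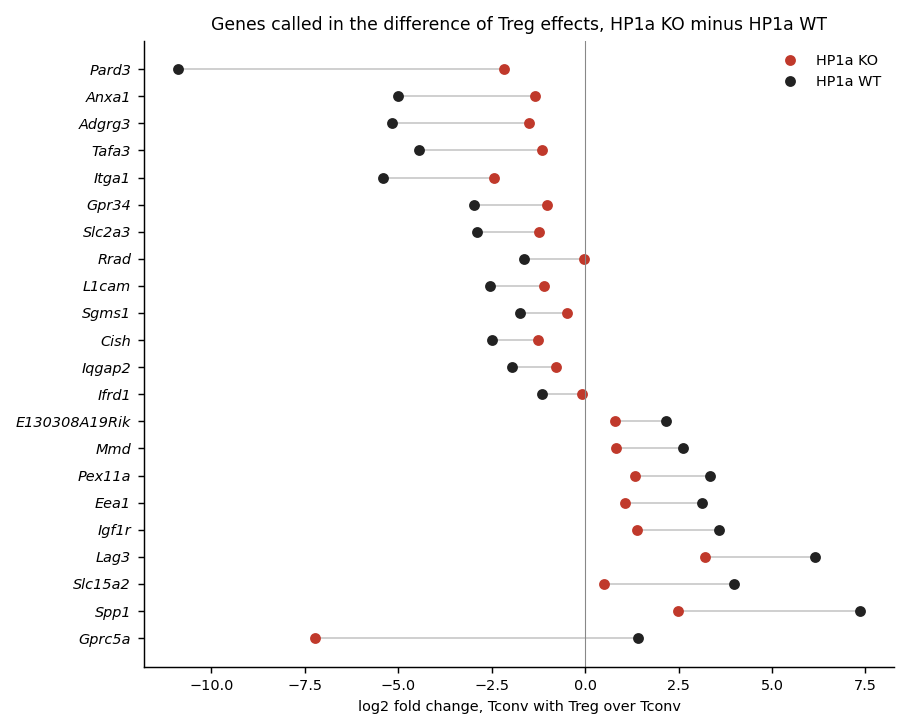
Log2 fold change with Treg (x axis) in HP1a KO (red) and HP1a WT (black) for 22 of the 24 genes whose difference was called (y axis). The KO point lies between 0 and the WT point in 21 genes, and Gprc5a lies on opposite sides of 0. The longest line shown is that of Pard3, with a mean of 3.07 CPM over the 12 libraries.

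The study used several ratios of Treg to Tconv, and the labels do not give the ratio of each group. Of its HP1γ RNA-seq experiment, the paper states that Treg, at the ratio used there, did not effectively hold back the response of WT cells. For HP1g WT, the line and a possible difference in ratio therefore cannot be told apart. HP1g WT cells gave 2 calls among 15903 genes (0.0126%), neither of them among the 71. Of 66 of the 71 genes tested there, 65 had the same sign as in HP1a KO and all 66 were smaller in size, with a median of 0.69 for genes that rose and -0.63 for genes that fell. Since these genes were chosen by their size in HP1a KO, the sizes are a description. Rgs16, Lag3, Pdcd1 and Tox had log2 fold changes of 1.42, 1.34, 0.87 and 1.07 in HP1g WT, and Cish of -0.46. The difference between the Treg effects of HP1a KO and HP1g WT was called for 0 of 17213 genes by edgeR, with 1012 at an unadjusted p under 0.05, and for 22 by DESeq2 (0.109%). Markers of other cells varied between the HP1g WT libraries. Summed erythroid markers ranged from 79 to 5117 CPM without and 160 to 3563 CPM with Treg. Summed neutrophil markers ranged from 6.33 to 652 CPM without and 67.6 to 188 CPM with Treg. The part of these cells in the HP1g WT counts was not tested.

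The levels in naive HP1a KO cells divided the genes further. Of the 29 genes that rose with Treg, 16 had a naive mean below that of Tconv without Treg, as Lag3, Pdcd1 and Il22 did, 8 lay between the groups and 5 above both, Dapl1 among them. Tox, at 92.6, 90.5 and 92.8 CPM in naive cells, lay between. Of the 42 genes that fell, 32 had a naive mean below that of Tconv with Treg, so that their level with Treg lay between naive cells and Tconv without Treg, 9 lay between the grafted groups and 1, Satb1, lay above both. Naive replicate 1 stood apart in several early response genes: Nr4a2 was at 37.8, 0.532 and 0.744 CPM, Per1, a clock gene, at 82.3, 12.8 and 11.6 CPM and Klf4 at 19.2, 3.61 and 3.87 CPM in the 3 naive libraries. Without that library, chosen after seeing the data, 20 of the 29 genes that rose had a naive mean below both groups, 5 lay between and 4 above, and of the 42 that fell 33 lay below, 8 between and 1 above. No test was made against naive cells.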

How the data were processed

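CD4+ T cells were profiled by RNA-seq (SMART-Seq v4 PLUS, an unstranded kit, paired-end reads). The authors ran nf-core/rnaseq on GRCm39 with Ensembl gene models: adapters were removed (Trim Galore, Cutadapt), STAR gave alignments and Salmon gave expression estimates. The deposited values are estimated counts per gene, neither scaled nor filtered, and 82.9% of them were whole numbers. Salmon divides reads shared by similar or overlapping genes, so these have less certain counts.

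Counts were rounded. Genes were tested with edgeR's quasi-likelihood test (edgeR 4.0.16, R 4.3.3, TMM factors, filterByExpr, robust fit) on the libraries of the groups compared, and p-values were adjusted over all genes tested. DESeq2 (1.42.0), which the authors used with the same thresholds, was run as an alternative. A CPM is scaled over 35 libraries, since HP1g KO Tconv with Treg replicate 3 was left out as in the study. The depth of 38362215 to 62700073 counts allows levels of 3 counts, 0.0476 to 0.0751 CPM, to be read, which covers counting error only. SE is that of the log2 fold change, computed from the F statistic. The test was checked on simulated data.

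The comparison, the 21 pathway lists, 8 marker lists and 3 sets printed by the study were chosen with earlier results of these data known. Named were the 12 highest and 12 lowest called genes at a mean of at least 5 CPM without overlap between the groups (leaving out receptor segments, predicted genes, RIKEN clones and pseudogenes), called genes on a list, the 3 genes of each pathway list with the lowest p, the most abundant gene of each marker list, 12 preset genes, and the 5 highest and 5 lowest called differences from HP1a WT. Named outside this rule, after values were seen, were Cish, Socs1, Socs2, Socs3, Osm, Egr1, Ctla4, Tigit, Per1, Lrg1, Rasl11a, Rom1, Pard3, Trbv19, Cd8a and the called genes under 5 CPM. Replicate numbers come from the titles and were not taken to pair the libraries. Positions are from GENCODE M39 on GRCm39, and promoter sequences from RefSeq (GRCm38.p6, the most upstream entry of each gene). ATAC-seq data were not analysed here, and some genes are not reported here by name.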

Additional observations from a re-analysis of the deposited data

Results flagged for a closer look

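The effect of Treg differed between HP1a KO and HP1a WT Tconv by the interaction test in 24 genes. Among them the effect in HP1a KO minus that in HP1a WT, on the log2 scale, was above 0 for Anxa1 (3.68), Adgrg3 (3.67), Tafa3 (3.29), Itga1 (2.95), Gpr34 (1.94), Slc2a3 (1.68), L1cam (1.46) and Cish (1.23), where the effect in both genotypes was below 0 and larger in size in WT. It was below 0 for Spp1 (-4.89), Slc15a2 (-3.48), Lag3 (-2.95), Igf1r (-2.19) and Eea1 (-2.05), where both effects were above 0 and larger in size in WT. Of these genes, Itga1, Slc2a3, L1cam, Cish, Lag3 and Eea1 were called in HP1a KO itself. Slc15a2 stood at 0.0413 CPM without and 0.683 CPM with Treg in WT, the first below the level of 3 counts in each library, and at 8.74 and 12.3 CPM in KO. Gprc5a (-8.60) had effects of opposite sign at a level near 1 CPM. Leaving out each of the 12 libraries in turn, the difference was called in every fit for Anxa1, Slc2a3, L1cam and Eea1, and was lost in 7 fits for Lag3 and Igf1r, 8 for Gpr34 and 9 for Slc15a2.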

How the results depend on the processing

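The number of genes called in HP1a KO, 71, was 443 with DESeq2, 126 without the filter on low counts, 122 without a threshold on the fold change and 4 to 58 without 1 library, lowest without Tconv with Treg replicate 3. It stayed within 1.5 times of 71 with RLE size factors (68), with all libraries of the line in 1 fit (106) and with the replicate block (79, 47 of them shared). The count in HP1a WT, 932, was 1754 with DESeq2, 1663 with all libraries of the line and 306 to 1450 without 1 library. The difference between them, 24 genes, was 356 with DESeq2, 65 without the filter, 124 with all libraries of the line and 9 to 91 without 1 library, most without HP1a WT Tconv with Treg replicate 3. The 2 genes in HP1g WT were 57 with DESeq2, 6 without the filter, 1 with all libraries of the line, 0 with the replicate block and 0 to 2 without 1 library. The difference from HP1g WT, 0 genes, was 22 with DESeq2 and 0 to 1 without 1 library. The log2 fold change in HP1a KO changed sign without 1 library in 7 genes that were not called: Birc5 (-0.0584 to 0.587), Havcr2 (-0.159 to 0.359), Ifng (-0.548 to 0.184), Il17a (-0.488 to 2.92), Itga2b (-1.34 to 0.0328), Mcm6 (-0.00388 to 0.238) and Socs1 (-0.0833 to 0.0459). The cause was not tested. Equally numbered libraries of HP1a KO deviated from their group means with correlations of 0.0290, 0.284 and 0.311, and only libraries 2 and 3 correlated best with their own number, so the replicate block is given as an alternative.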
